A study of Mus musculus with 32 samples.

Results

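Melanin is made by a small set of genes that are active in pigment cells, and 10 of them were followed here through 32 mouse melanomas: Tyr, Tyrp1, Dct, Pmel, Mlana, Oca2, Slc45a2, Slc24a5, Gpr143 and Trpm1. The genes were chosen by name, for their known roles in melanin synthesis and the melanosome, and their rows were found by Ensembl identifier among the 50600 genes of the count and TPM tables. The rule uses no measured value, but the list was drawn up with earlier results of these data known. All 10 genes passed the filter on low counts and were tested with the 17717 genes that did.

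The tumours were primary melanomas of mice that carried Tyr::NrasQ61K, an oncogene driven in the pigment lineage by the promoter of Tyr, that had lost 1 copy of the tumour suppressor Cdkn2a (Cdkn2a-/+) and whose Cdh1 alleles were floxed (Cdh1F/F). Cdh1 encodes E-cadherin, the adhesion protein that ties melanocytes to keratinocytes. In the 16 Ecad tumours (°/° in the labels) Cdh1 was intact, and in the 16 ΔEcad tumours it was to be deleted in cells of the pigment lineage. For the ΔEcad tumours the sample labels write Tyr::NRAS/° where the methods of the study give Tyr::CreA/°, a Cre recombinase that is also driven by the Tyr promoter. Each genotype had 8 tumours labelled male and 8 labelled female, and ages are not in the labels. The labels do not say that each tumour came from a different animal, so the p-values below measure the spread between tumours. Both transgenes used the promoter of a gene studied here, and whether any transgene sequence was counted under Tyr was not tested.

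Melanin is built inside the melanosome, a membrane organelle of the pigment cell. Tyrosinase, the product of Tyr, oxidises tyrosine, and the related enzymes made by Tyrp1 and Dct act on later intermediates of the path to brown-black eumelanin. Pmel forms the fibrils on which the pigment is laid down, transporters and channels set the ions and the pH inside the organelle, and the transcription factor Mitf, with Sox10 and Pax3, drives most of these genes in melanocytes.

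A short motif that Mitf can bind lies near the start of several of these genes, and the stretches that hold it are given below. Whether the motif has a part in the co-variation described further on was not tested. Sequences were from RefSeq on GRCm38.p6, from 250 bases before each annotated start to 50 bases after it, and 6 of the 10 genes matched, with 7 starts. The letters TCATGTG, known as the M-box, were searched on both strands and were present in 5 of the 7 regions, which belong to 5 genes, against 3.77% of the 32851 regions of the same kind. The shorter core CATGTG, which lies inside the M-box, was in 7 of 7 regions and in 14.2% of all regions. In the lines that follow, capitals mark the motif, with 10 bases on each side, 5′ to 3′.
Tyr, minus strand, chr7:87493518-87493544, motif 22 to 16 bases before the start: aaaaagttagTCATGTGctttgcagaa
Tyrp1, plus strand, chr4:80834156-80834182, motif 47 to 41 bases before the start: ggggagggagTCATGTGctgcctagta
Dct, minus strand, chr14:118052381-118052407, motif 151 to 145 bases before the start: gcacttagggTCATGTGctaacaaaga
Dct, plus strand (opposite to the gene), chr14:118052462-118052488, motif 232 to 226 bases before the start: tttattgggcTCATGTGtcccagccaa
Slc24a5, minus strand (opposite to the gene), chr2:125068104-125068130, motif 13 to 7 bases before the start: ttatgctgaaTCATGTGagcagtctcc
Trpm1, plus strand, chr7:64153683-64153709, motif 142 to 136 bases before the start: caaatcctcaTCATGTGcccaccccaa
Oca2, minus strand (opposite to the gene), chr7:56239563-56239588, core only, 186 to 181 bases before the start: aaattccagcCATGTGtagcaagctc
The capitals are letters found in a window and are not measured binding sites. Of the other motifs searched on both strands, the E-box CACGTG was in 1 region (7.15% of all regions), the SOX motif ACAATG in 1 (12.6%) and the TATA box TATAAA in 1 (13.6%).

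Total counts per tumour ranged from 24036333 to 63923086, with a median of 34684496. Levels are given as TPM, a count corrected for the length of the gene and for library depth, the only scale here on which genes are set against each other. The targeted gene, Cdh1, overlapped between genotypes, with medians in males of 144.6 TPM (Ecad) and 3.29 TPM (ΔEcad), medians in females of 30.6 TPM (Ecad) and 46.7 TPM (ΔEcad) and a highest ΔEcad value of 143 TPM. Gene totals do not resolve the floxed exons, and keratinocytes in the tissue also express Cdh1. Xist, the RNA of the inactive X chromosome, was at 6.41 TPM in the library labelled ΔEcad male 2, with 0 counts over the Y-linked genes, and ΔEcad female 1 had 92 Y-linked counts. Several results are also given without ΔEcad male 2 and ΔEcad male 7.

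ΔEcad male 7 stood apart from the other 31 tumours for the pigment genes themselves. It had 0.49 TPM of Sox10, where the lowest other tumour had 346, it had 0.01 TPM of Pax3, where the lowest other had 12.1, and its mean log2 CPM over 10 melanocytic marker genes was 0.989, where the other tumours had 6.15 to 8.98. Its Tyr was 0.11 TPM (10 counts), its Mlana 7.47 TPM and its Oca2 0 TPM. A count of 0 allows up to 3 counts. The same library had the highest fibroblast and macrophage marker scores of the 32 tumours (8.76, with the next at 7.25, and 7.48, with the next at 7.00), with Pdgfra at 194 TPM and Dcn at 404 TPM. Of the lineage genes, Sox10, Pax3 and Mc1r (0.04 TPM) were near 0 in this library, while Mitf was at 12.4 TPM and Kit at 7.11 TPM. The other 31 tumours expressed Sox10, Pax3, Mitf and Mc1r at 4.35 TPM or more.

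The pigment genes took up to 7.53% of all TPM and differed widely in level among themselves. Together the 10 genes made up a median of 2.82% of all TPM over the 32 tumours and of 2.89% without ΔEcad male 7. The share ran from 0.00193% in ΔEcad male 7 and 0.561% in ΔEcad female 2 to 7.37% in Ecad male 7 and 7.53% in Ecad female 8. Ecad tumours had medians of 2.95% (males) and 3.05% (females), ΔEcad tumours had medians of 2.88% (males) and 1.93% (females), and the ranges overlapped. In bulk tissue, fewer pigment cells and less RNA of these genes per cell cannot be told apart.

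**Figure D1:**
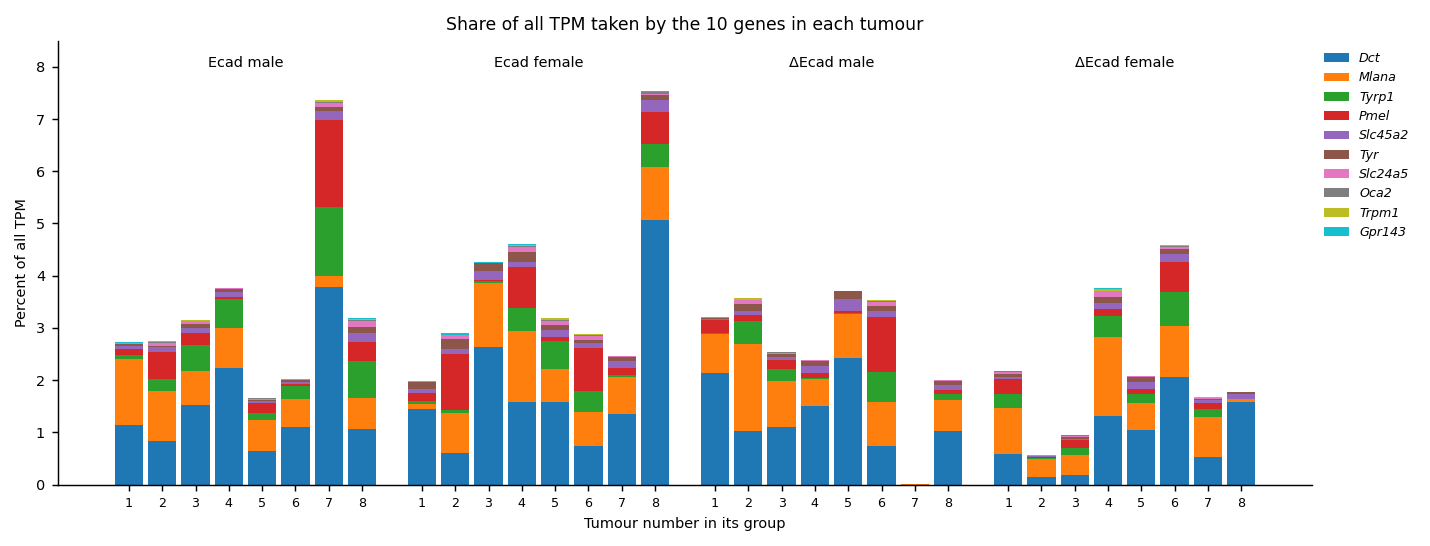
Percent of all TPM taken by the 10 genes, stacked by gene, in each of the 32 tumours grouped by label. Dct and Mlana make up most of most bars, the highest bars are Ecad female 8 (7.53%) and Ecad male 7 (7.37%), and ΔEcad male 7 has no visible bar (0.00193%).

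Dct led the order of abundance and Gpr143 and Trpm1 closed it. Medians over the 32 tumours were 11257 TPM for Dct, 7271 for Mlana, 1985 for Tyrp1, 1444 for Pmel, 946 for Slc45a2, 772 for Tyr, 257 for Slc24a5, 44.6 for Oca2, 35.1 for Trpm1 and 34.5 for Gpr143. Dct was the highest of the 10 in 20 tumours, Mlana in 9 and Pmel in 3. Dct was never below the third place and Slc24a5 never left places 6 and 7.

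Neighbours in this order were compared within tumours by the mean log2 ratio of TPM + 0.1, with a two-sided sign-flip permutation test adjusted over the 9 pairs. In 6 pairs the adjusted p was below 0.05. The order came from the medians of the same 32 tumours, so these p-values are no separate check of it. Dct exceeded Mlana in 21 of 32 tumours (mean log2 ratio 0.80 ± 1.43 SD, adjusted p = 0.00313), Mlana exceeded Tyrp1 in 30 (2.16 ± 1.91, adjusted p = 4.5e-05) and Slc24a5 exceeded Oca2 in 32 (2.79 ± 2.23, adjusted p = 4.5e-05). Both adjusted values of 4.5e-05 rest on a permutation p of 1e-05, the smallest that 100000 draws can give. Among the 9 steps, only those from Mlana to Tyrp1 and from Slc24a5 to Oca2 were larger than the SD of the ratio between tumours. Pmel over Slc45a2 (22 tumours, adjusted p = 0.0203), Slc45a2 over Tyr (26, adjusted p = 0.00241) and Tyr over Slc24a5 (27, adjusted p = 0.00012) passed the permutation test with smaller steps. The other 3 neighbouring pairs did not pass the permutation test. They were Tyrp1 and Pmel, where Tyrp1 was higher in 14 of 32 tumours (adjusted permutation p = 0.752), Oca2 and Trpm1 (18 of 32, 0.752), and Trpm1 and Gpr143 (20 of 32, 0.752). Trpm1 has 14746 bases of merged exon in 23 annotated transcripts, so its place per length depends on the length that was used for it.

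By group, Dct and Mlana kept the first and second places in all 4 groups, and the order below them varied. In ΔEcad males Tyrp1 was sixth, with a median of 713 TPM against 3778 in Ecad males, behind Slc45a2 (886) and Tyr (806). That place changed without ΔEcad male 7: over the other 7 ΔEcad males the Tyrp1 median was 1188 TPM, above Pmel (1018), Slc45a2 (909) and Tyr (908). ΔEcad males 1, 4 and 5 were low as well, with 238, 210 and 129.7 TPM of Tyrp1, each below its Slc45a2. Leaving out any of them would move the Tyrp1 median as much, so its shift is not particular to ΔEcad male 7.

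**Figure D2:**
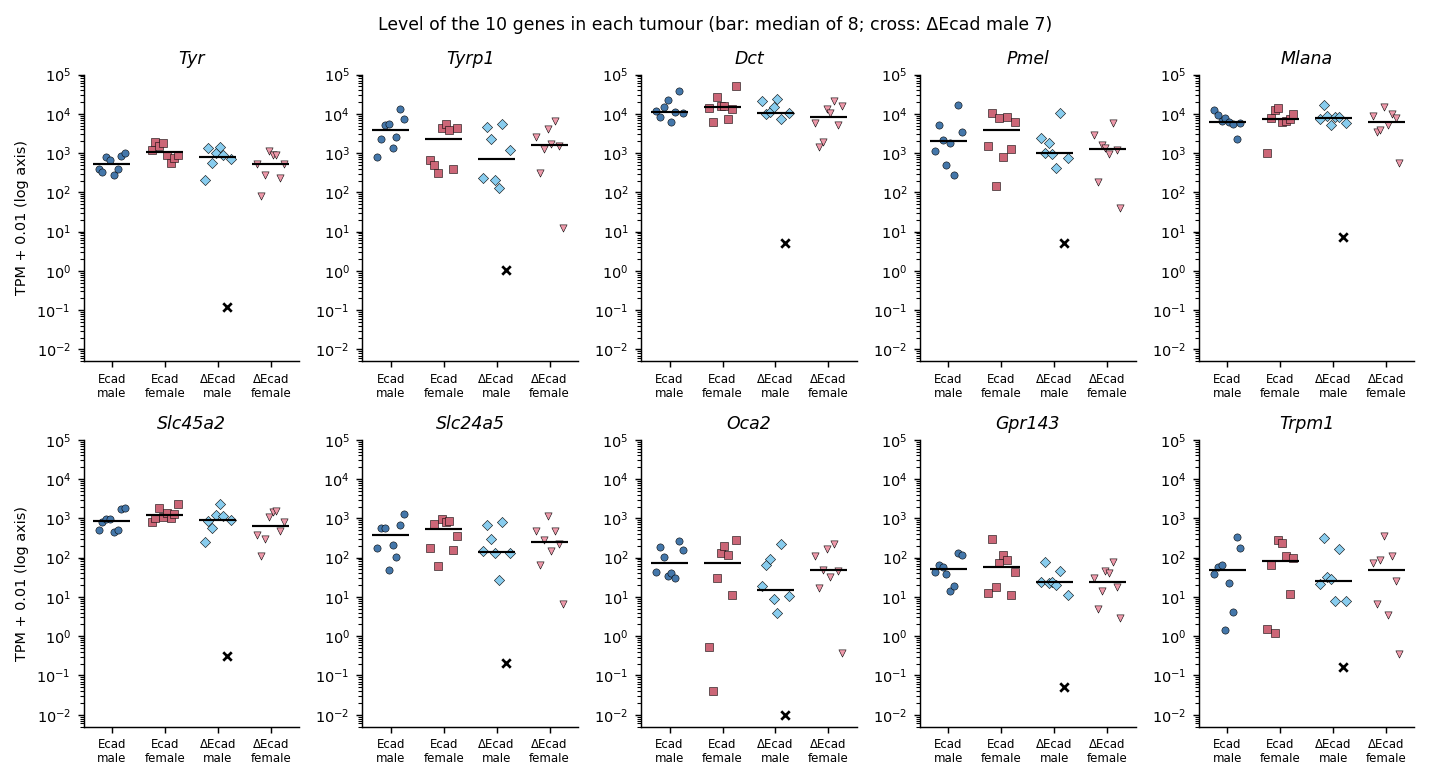
TPM + 0.01 on a log axis for each of the 10 genes (panels) in the 8 tumours of each of the 4 groups, with a bar at the group median and a cross for ΔEcad male 7. All groups overlap for every gene, and ΔEcad male 7 is the lowest tumour for each of the 10 genes.

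Loss of Cdh1 was the first comparison, made within each sex, to ask whether the pigment genes differ with genotype. None of the 10 genes was called in females or in males, and the groups overlapped for all 10. Overlap was not counted over all genes, so here and below it only describes the values of the 10. A gene was called when the adjusted p of edgeR's quasi-likelihood test (Benjamini-Hochberg over all genes tested) was below 0.05 and the fold change above 2-fold (1 on the log2 scale). In females, 0 of 10 were called, 1.2% of all genes were (213 of 17717, a count that fell to 1 without any 1 of 8 single tumours, Ecad females 1, 2, 3, 6, 7 and 8 and ΔEcad females 2 and 7, and rose to 695 without ΔEcad female 4 and to 393 without ΔEcad males 2 and 7), and 0 of 10 had an unadjusted p below 0.05, where 15.3% of all genes did. In males 0 of 10 were called, 0% of all genes were, and 0 of 10 had an unadjusted p below 0.05, where 10.2% of all genes (1814) did. DESeq2 and limma voom also called 0 of 10 in either sex. The values by gene follow, ordered by role, with fold changes given as ΔEcad relative to Ecad on the log2 scale with their standard errors.

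Tyr encodes tyrosinase, the enzyme of the rate-limiting step (ENSMUSG00000004651, chr7:87424771-87493512, minus strand, GRCm38). In females it ranged from 567 to 1898 TPM in Ecad tumours (median 1055) and from 81 to 1145 TPM in ΔEcad tumours (median 524). In males it ranged from 276 to 1032 TPM in Ecad tumours (median 525) and from 0.11 to 1437 TPM in ΔEcad tumours (median 806), with 209 TPM as the second lowest value. The highest tumour was Ecad female 2 and the lowest after ΔEcad male 7 was ΔEcad female 2, and the genotypes overlapped in both sexes. The estimate was -1.01 ± 0.68 in females (95% interval -2.39 to 0.37, edgeR adjusted p = 0.535) and 0.58 ± 0.67 in males (edgeR adjusted p = 0.768).

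Tyrp1 encodes a tyrosinase-related enzyme that also stabilises tyrosinase (ENSMUSG00000005994, chr4:80834123-80851719, plus strand). Ecad females had 319.6 to 5359 TPM (median 2289.8) and ΔEcad females 12.4 to 6536 TPM (median 1628). Ecad males had 818 to 13192 TPM (median 3778) and ΔEcad males 1.07 to 5663 TPM (median 713), with 129.7 TPM as the second lowest. Low tumours occurred in 3 of the groups: 319.6 to 653 TPM in 4 Ecad females, 129.7 to 238 TPM in ΔEcad males 1, 4 and 5, and 306 and 12.4 TPM in ΔEcad females 2 and 8. The estimates were -0.12 ± 0.97 in females (edgeR adjusted p = 0.979) and -1.10 ± 0.98 in males (95% interval -3.10 to 0.90, edgeR adjusted p = 0.698).

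Dct encodes dopachrome tautomerase, which acts between tyrosinase and Tyrp1 (ENSMUSG00000022129, chr14:118012790-118052244, minus strand). Across females, Ecad tumours held 6112 to 50656 TPM (median 15100.1) and ΔEcad tumours 1466 to 20651 TPM (median 8156). Across males, Ecad tumours held 6338 to 37797 TPM (median 11257) and ΔEcad tumours 4.98 to 24202 TPM (median 10638), with 7361 TPM as the second lowest. After ΔEcad male 7, the lowest tumours were ΔEcad female 2 (1466 TPM) and ΔEcad female 3 (1917 TPM), and the genotypes overlapped in both sexes. The estimates were -1.11 ± 0.72 in females (95% interval -2.58 to 0.37, edgeR adjusted p = 0.519) and 0.05 ± 0.71 in males (edgeR adjusted p = 0.988).

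Pmel encodes the fibril protein of the early melanosome (ENSMUSG00000025359, chr10:128704195-128720238, plus strand). The females spanned 141 to 10736 TPM in Ecad tumours (median 3808) and 40.9 to 5678 TPM in ΔEcad tumours (median 1277). The males spanned 283 to 16560.5 TPM in Ecad tumours (median 1979.8) and 4.98 to 10604.5 TPM in ΔEcad tumours (median 991), with 407 TPM as the second lowest. Its highest values were in Ecad male 7, Ecad female 2 and ΔEcad male 6, and its values were spread in every group. The female estimate, -1.39 ± 0.97, was the lowest of the 10 (95% interval -3.37 to 0.59, edgeR adjusted p = 0.557), and the male estimate was -0.39 ± 0.95 (edgeR adjusted p = 0.902). Pmel shares exon bases with Cdk2 (34) and Dgka (105) on the opposite strand, and the counting is not stated to use strand, so its counts are uncertain by what those genes add.

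Mlana, also known as MART-1, encodes a melanosome membrane protein that takes part in the processing of Pmel (ENSMUSG00000024806, chr19:29697824-29708634, plus strand). In females it ranged from 996 to 13676 TPM in Ecad tumours (median 7407) and from 564 to 15006 TPM in ΔEcad tumours (median 6361). In males it ranged from 2234 to 12586 TPM in Ecad tumours (median 6304) and from 7.47 to 16686 TPM in ΔEcad tumours (median 7949), with 5251 TPM as the second lowest. Its group medians were the closest to each other of the 10 genes in proportion. The estimates were -0.26 ± 0.67 in females (edgeR adjusted p = 0.914) and 0.54 ± 0.67 in males (edgeR adjusted p = 0.780).

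Among the transporters, Slc45a2, a melanosome membrane transporter tied to the pH of the organelle, had the smallest spread of the 10 over 31 tumours (ENSMUSG00000022243, chr15:11000721-11029233, plus strand). Ecad females had 790.1 to 2341 TPM (median 1209) and ΔEcad females 111 to 1539 TPM (median 643). Ecad males had 439 to 1787 TPM (median 871) and ΔEcad males 0.31 to 2343 TPM (median 886), with 248 TPM as the second lowest. Of the ΔEcad females, 4 were below every Ecad female and 4 lay within their range. The estimates were -0.84 ± 0.67 in females (95% interval -2.21 to 0.53, edgeR adjusted p = 0.623) and 0.05 ± 0.67 in males (edgeR adjusted p = 0.987).

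Slc24a5 encodes a potassium-dependent sodium-calcium exchanger (ENSMUSG00000035183, chr2:125068124-125088677, plus strand). Across females, Ecad tumours held 60.97 to 989 TPM (median 529) and ΔEcad tumours 6.68 to 1121 TPM (median 257). Across males, Ecad tumours held 48.9 to 1296 TPM (median 383) and ΔEcad tumours 0.20 to 788 TPM (median 139.8), with 26.4 TPM as the second lowest. High and low tumours were found in each group. The estimates were -0.45 ± 0.88 in females (edgeR adjusted p = 0.879) and -0.38 ± 0.88 in males (edgeR adjusted p = 0.893). It shares 921 exon bases with Myef2 on the opposite strand, so its counts are uncertain too, and the level of Myef2 reached 55.1 TPM at most.

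Oca2 encodes a melanosome protein needed for the chloride current and the pH of the organelle (ENSMUSG00000030450, chr7:56239760-56536518, plus strand), and it was the most uneven of the 10 genes. The females spanned 0.03 to 275 TPM in Ecad tumours (median 74.2) and 0.37 to 218 TPM in ΔEcad tumours (median 48.1). The males spanned 29.5 to 269 TPM in Ecad tumours (median 73.9) and 0 to 221 TPM in ΔEcad tumours (median 14.6), with 3.85 TPM as the second lowest. The estimates were -0.29 ± 1.11 in females (edgeR adjusted p = 0.945) and -0.71 ± 1.11 in males (edgeR adjusted p = 0.837). In 3 tumours Oca2 was close to 0 while Tyr was not: Ecad female 2 had 1 count of Oca2 (0.03 TPM) with 1898 TPM of Tyr, Ecad female 1 had 41 counts (0.52 TPM) with 1201 TPM of Tyr, and ΔEcad female 8 had 18 counts (0.37 TPM) with 519.6 TPM of Tyr, near the median of its group (524). Herc2, the neighbouring gene, was at 23.5, 31.6 and 43.5 TPM in those tumours, above its median of 18.1 TPM over all tumours. These tumours were picked for their low Oca2, and the values are a description.

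Gpr143, whose product is a G-protein-coupled receptor of the melanosome membrane (ENSMUSG00000025333, chrX:152781921-152808646, plus strand), had the lowest median of the 10. In females it ranged from 10.9 to 299.8 TPM in Ecad tumours (median 57.8) and from 2.97 to 76.1 TPM in ΔEcad tumours (median 24.5). In males it ranged from 14.5 to 129.6 TPM in Ecad tumours (median 50.9) and from 0.04 to 79.4 TPM in ΔEcad tumours (median 23.5), with 10.9 TPM as the second lowest. ΔEcad medians were below Ecad medians in both sexes and the ranges overlapped. The estimates were -1.36 ± 0.78 in females (95% interval -2.94 to 0.23, edgeR adjusted p = 0.434, the lowest of the 10) and -0.74 ± 0.77 in males (edgeR adjusted p = 0.741).

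Trpm1 encodes a cation channel of melanocytes and carries Mir211 in an intron (ENSMUSG00000030523, chr7:64153835-64269775, plus strand). Ecad females had 1.22 to 287 TPM (median 81.3) and ΔEcad females 0.35 to 363 TPM (median 49.1). Ecad males had 1.40 to 327 TPM (median 48.5) and ΔEcad males 0.15 to 319 TPM (median 25.2), with 7.70 TPM as the second lowest. Very low tumours were present in both genotypes. The estimates were -0.17 ± 1.18 in females (edgeR adjusted p = 0.973) and 0.13 ± 1.18 in males (edgeR adjusted p = 0.979).

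Over the list, 10 of 10 estimates were below 0 in females, with a median of -0.645 against -0.018 over all genes tested. The count fell to 9 of 10 on the TPM scale and under limma voom, to 8 of 10 with a keratinocyte score as a covariate and to 5 of 10 with the mean of Sox10, Mitf and Pax3 as a covariate, where the median was 0.01. With 1 tumour left out, it fell to 8 of 10 without Ecad female 5 or 8 or ΔEcad female 2 or 8, and the median ranged from -1.16 (without ΔEcad female 4) to -0.48 (without ΔEcad female 2). The scores moved with the groups. The keratinocyte score, a mean log2 CPM over 10 marker genes, had a median of -3.68 in Ecad females (-4.79 to 4.35) and 6.43 in ΔEcad females (-4.62 to 9.76), and the melanocytic score had a median of 8.58 (8.31 to 8.78) and 7.66 (6.15 to 8.98). Their part in the estimates was not tested beyond those fits. In males 5 of 10 estimates were below 0, with a median of -0.168 against 0.113 over all genes, but 10 of 10 were below 0 on the TPM scale with all tumours kept, 8 of 10 with library size alone or limma voom, and 6 of 10 without ΔEcad males 2 and 7. Single tumours turned the sign of the median: it was 0.30 without Ecad male 7 and 0.10 without Ecad male 8, with 4 of 10 below 0 in each, and 0.02 without ΔEcad male 7 (5 of 10). Without ΔEcad male 2 the sign stayed and the median was -0.53 (6 of 10). No direction for the list is read from these values in males.

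**Figure D3:**
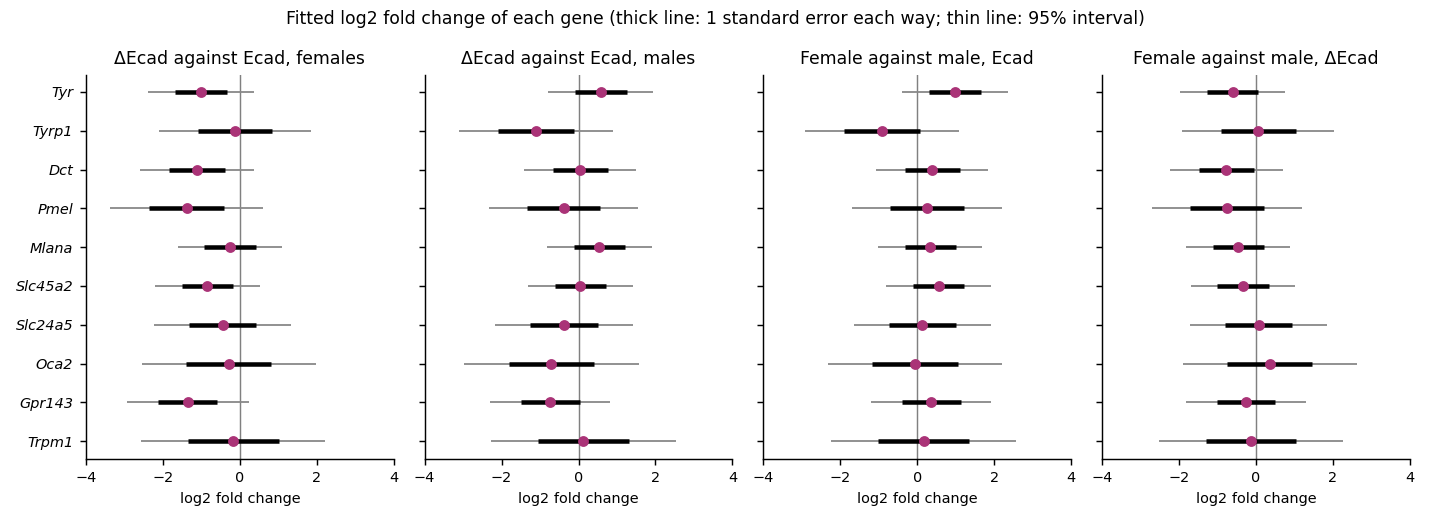
Fitted log2 fold change of each of the 10 genes from edgeR for genotype in females, genotype in males, sex in Ecad tumours and sex in ΔEcad tumours, with points for estimates, thick lines for 1 standard error each way and thin lines for 95% intervals. Every thin line crosses 0, and the intervals in females reach from -3.37 for Pmel to 2.23 for Trpm1.

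With the sexes averaged, the 16 ΔEcad tumours were compared with the 16 Ecad tumours, and 0 of 10 genes were called against 0.0113% of all genes (2 of 17717), with 0 of 10 at an unadjusted p below 0.05 in edgeR (9.88% of all genes) and 1 of 10 in DESeq2 and in limma voom. Gpr143 had the estimate furthest from 0, -1.05 ± 0.55 (95% interval -2.16 to 0.06, edgeR adjusted p = 0.526), followed by Pmel at -0.89 ± 0.68 (edgeR adjusted p = 0.697) and Tyrp1 at -0.61 ± 0.69 (edgeR adjusted p = 0.816). Dct was at -0.53 ± 0.51 (edgeR adjusted p = 0.771). Of the 10 estimates, 9 were below 0 and Mlana was at 0.14 ± 0.47, and the median was -0.457 against 0.07 over all genes tested. The count was 10 on the TPM scale and under limma voom, and 6 with the mean of Sox10, Mitf and Pax3 as a covariate, and it ranged from 8 to 10 with 1 tumour left out.

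Sex was compared within each genotype, females relative to males. In Ecad tumours 0 of 10 genes were called, against 0.0508% of all genes (9 of 17717), with 0 of 10 at an unadjusted p below 0.05 in edgeR (16% of all genes), DESeq2 and limma voom. Tyr had the largest estimate, 0.98 ± 0.68 (95% interval -0.40 to 2.36, edgeR adjusted p = 0.493), from 276 to 1032 TPM in males and 567 to 1898 TPM in females. In this pair 4 of 8 females were above every male, and the other females overlapped with the males. The list had 8 of 10 estimates above 0 with a median of 0.295 against 0.048 over all genes, but 7 and 6 of 10 were above 0 on the TPM scale with 1 and 0.1 added, 5 of 10 with a keratinocyte score as a covariate and 1 of 10 with the mean of Sox10, Mitf and Pax3 as a covariate. With 1 tumour left out, the median ranged from 0.15 (without Ecad male 6) to 0.67 (without Ecad male 7). In ΔEcad tumours 0 of 10 were called, against 0.0395% of all genes (7 of 17717), with 0 of 10 at an unadjusted p below 0.05 in the same tools (8.81% of all genes in edgeR). There Dct was at -0.77 ± 0.72 (edgeR adjusted p = 0.786), and 3 of 10 estimates were above 0, against 10 of 10 on the TPM scale, 8 of 10 under limma voom and 5 of 10 without ΔEcad males 2 and 7. The median of -0.297 turned to 0.07 without ΔEcad male 6 and to 0.05 without ΔEcad male 2, and was -0.65 without ΔEcad female 4.

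The difference between the sexes in the response to genotype was tested as an interaction, and 0 of 10 genes were called, 0% of all genes were, and 0 of 10 had an unadjusted p below 0.05, where 17.7% of all genes (3131) did. The count over all genes rose to 848 without ΔEcad male 3. Of the 10 estimates 8 were below 0, against 6 without ΔEcad males 2 and 7, and 3 and 2 on the TPM scale with 1 and 0.1 added. The median of -0.71 ranged from -0.999 without ΔEcad female 4 to -0.26 without ΔEcad male 6. DESeq2 and limma voom also called 0 of 10. Tyr had the estimate furthest from 0, -1.58 ± 0.95 (95% interval -3.53 to 0.36, edgeR adjusted p = 0.395), from a genotype estimate of -1.01 in females and 0.58 in males. Dct followed with -1.16 ± 1.01 (edgeR adjusted p = 0.583). The comparisons within females, within males and within genotypes share tumours and are not independent of each other. The 95% intervals of all 10 genes included 0 in each of the 6 comparisons, and across the genes they reached from -2.27 to 1.67 with the sexes averaged and from -3.75 to 3.78 in the interaction, so the absence of a call does not show that the groups were alike.

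The genes around the pathway were described with 2 further lists. Of 15 lineage factors and signalling genes (Mitf, Sox10, Pax3, Mc1r, Kit and others) 13 passed the filter, and of 32 genes of melanosome biogenesis and transport 32 did. None of either list was called by edgeR in any of the 6 comparisons, with 0 to 4 of 13 and 2 to 5 of 32 at an unadjusted p below 0.05 in each, where 8.81% to 17.7% of all genes had one. DESeq2 called Tfec and Atp7a for sex in Ecad tumours and Tfap2a in the interaction, which are named for that reason after their values were seen, and limma voom called none. In the same comparisons DESeq2 called 5.77% and 6.91% of all genes, against 2 and 1 of the 45 genes of both lists. In females Mitf, the lineage transcription factor, had a median of 115 TPM in Ecad tumours (30.4 to 590.5) and 65.5 TPM in ΔEcad tumours (21.3 to 178.7), with an estimate of -1.26 ± 0.51 (edgeR adjusted p = 0.196). The lineage list had 9 of 13 estimates below 0 in females (median -0.35) and 5 of 13 in males (median 0.03), and the biogenesis list 25 of 32 in females (median -0.29) and 16 of 32 in males (median -0.01). Over all genes tested the medians were -0.018 in females and 0.113 in males.

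The 10 genes moved together across tumours, and how strongly depended on ΔEcad male 7. Pearson correlations of log2 CPM were computed for all 45 pairs, with two-sided permutation p-values adjusted over the pairs. The lowest adjusted values printed rest on a permutation p of 1e-05, the smallest that the draws can give. Over 32 tumours 45 of 45 pairs were positive with an adjusted p below 0.05, and r ranged from 0.41 (Dct and Trpm1) to 0.97 (Tyr and Slc45a2) with a median of 0.74. By Spearman's rho 28 of 45 passed, with a median of 0.43. Without ΔEcad male 7, 44 of 45 pairs were positive, 24 of 45 passed, and r ranged from -0.01 (Tyr and Oca2) to 0.89 (Slc24a5 and Trpm1), with a median of 0.50. By rho 22 of 45 passed in these 31 tumours. Pairs of other genes were not counted, so these counts only describe the 10.

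**Figure D4:**
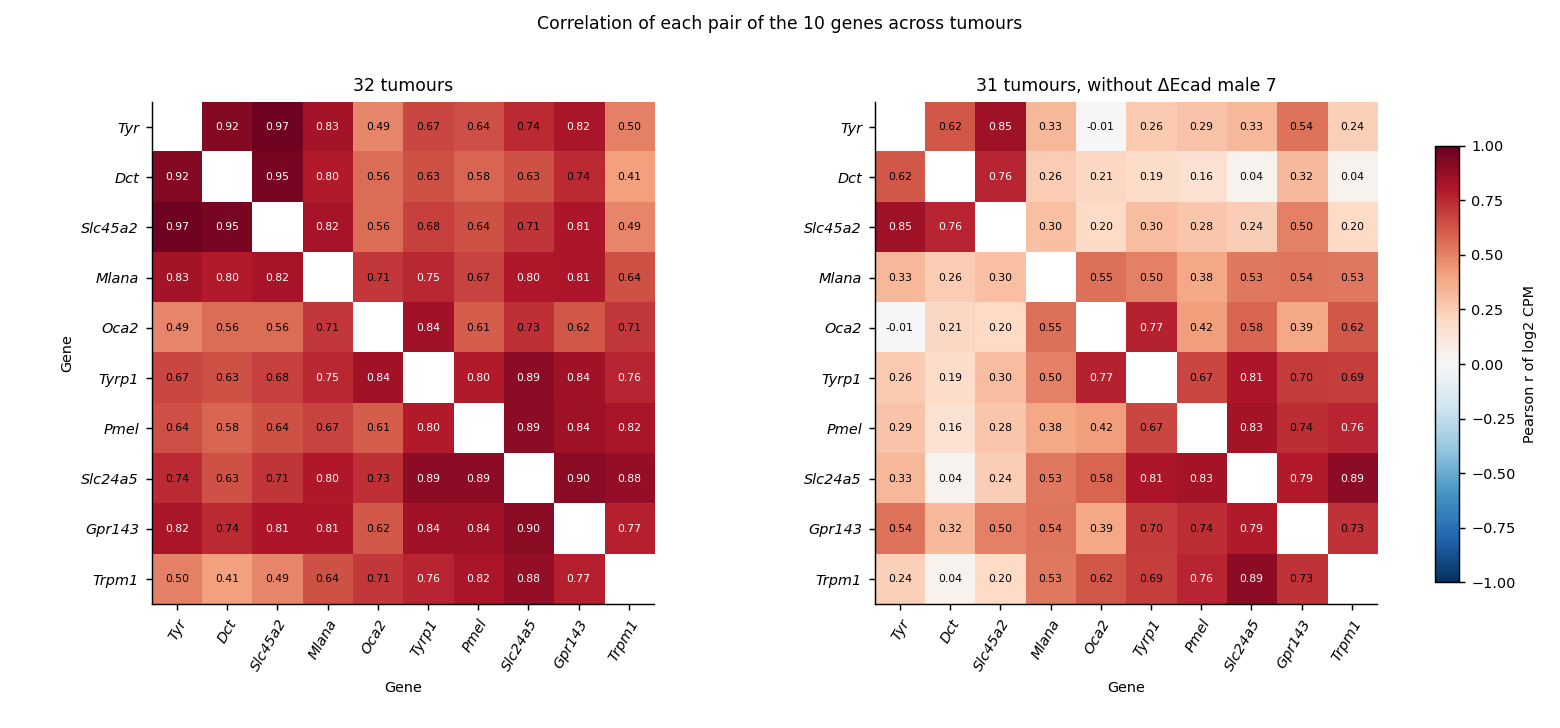
Pearson r of log2 CPM for each pair of the 10 genes over 32 tumours (left) and over the 31 tumours without ΔEcad male 7 (right), on a colour scale from -1 to 1. Median r is 0.74 on the left and 0.50 on the right, where Tyr, Dct and Slc45a2 stay correlated with each other (0.62 to 0.85) and Dct with Trpm1 is at 0.04.

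Over the 31 tumours, pairs with high and with low r fell into a pattern that is described here after its values were seen, with no test of the grouping. Tyr, Dct and Slc45a2 varied together, with r from 0.62 to 0.85 and rho from 0.50 to 0.74 in their 3 pairs. Tyrp1, Pmel, Slc24a5, Gpr143 and Trpm1 varied together as well, with r from 0.67 to 0.89 and rho from 0.55 to 0.91 in their 10 pairs. Between these sets, r ranged from 0.04 to 0.54 over 15 pairs, and 2 of the 15 passed the permutation test, Tyr with Gpr143 (0.54, adjusted p = 0.00439) and Slc45a2 with Gpr143 (0.50, adjusted p = 0.009).

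Single pairs show the contrast. Tyr and Slc45a2 had r = 0.85 over 31 tumours (rho 0.74, adjusted permutation p = 5.62e-05), and r = 0.97 over 32 fell to 0.78 when the 2 tumours furthest from the median Tyr were left out. Slc24a5 and Trpm1 had r = 0.89 (rho 0.91, adjusted permutation p = 5.62e-05) and 0.87 without the 2 furthest of the 32. Dct and Trpm1 had r = 0.04 (rho 0.10, adjusted permutation p = 0.87), and their r of 0.41 over 32 tumours went to -0.05 without the 2 furthest tumours and rested on those. Oca2 had r of -0.01 (Tyr) to 0.21 with Tyr, Dct and Slc45a2 (rho 0.12 to 0.31). With Tyrp1, Pmel, Slc24a5, Gpr143 and Trpm1 its r was 0.39 to 0.77 (Tyrp1), with rho of 0.62 to 0.82. Mlana had r of 0.26 to 0.33 with the first of these sets and of 0.38 to 0.54 with the second. By rank its values overlapped, with rho of 0.26 to 0.42 and 0.27 to 0.37.

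Single tumours, picked after their values were seen, show the second set both low and high where Dct was above its median of 11257 TPM. In ΔEcad female 8 Dct was 15836 TPM and Tyr 519.6 TPM, with Tyrp1 at 12.4, Pmel at 40.9, Slc24a5 at 6.68, Gpr143 at 2.97 and Trpm1 at 0.35 TPM. ΔEcad male 5 likewise had 24202 TPM of Dct with 129.7 TPM of Tyrp1, 407 of Pmel, 26.4 of Slc24a5, 20.3 of Gpr143 and 7.70 of Trpm1. The tumours with the highest Dct went the other way, with the second set above its medians. Ecad female 8 (Dct 50656 TPM) had Tyrp1 at 4356, Pmel at 6107, Slc24a5 at 349.5, Gpr143 at 43.0 and Trpm1 at 99.2 TPM. Ecad male 7 (Dct 37797 TPM) had 13192, 16560.5, 660.6, 129.6 and 327 TPM in the same order. ΔEcad female 3 had the third lowest Dct, 1917 TPM, and its second set was mixed: Trpm1 (84.6 TPM), Pmel (1567) and Slc24a5 (285) were above their medians over all tumours, and Tyrp1 (1235) and Gpr143 (14.2) were below theirs.

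**Figure D5:**
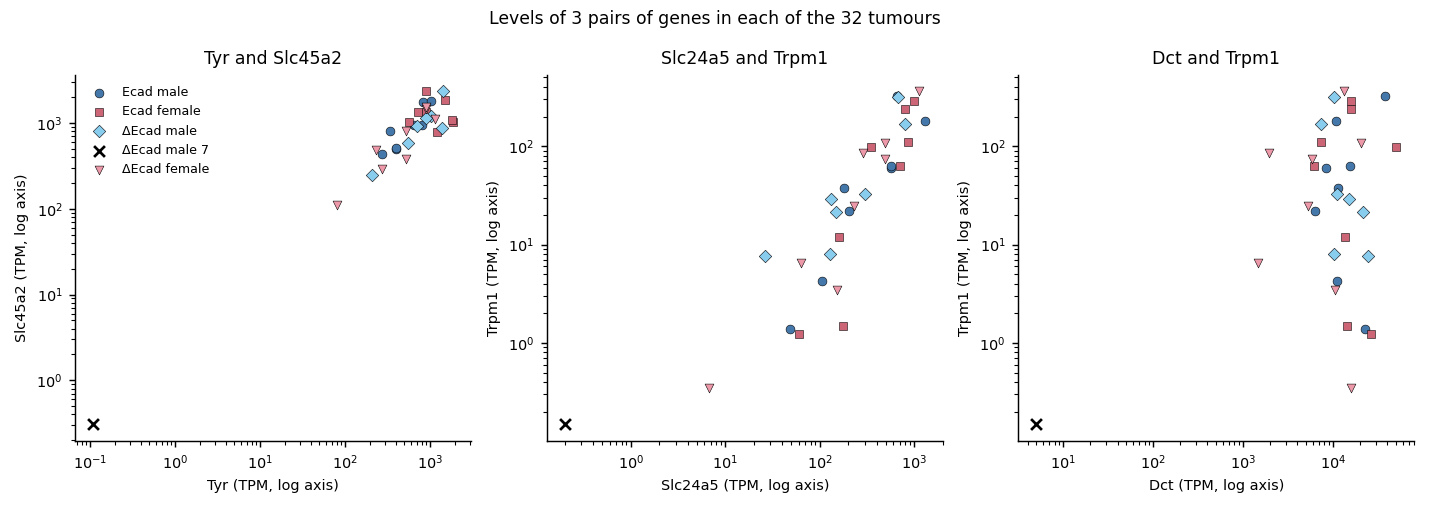
TPM of Tyr and Slc45a2, of Slc24a5 and Trpm1 and of Dct and Trpm1 in each of the 32 tumours, on log axes, with symbols for the 4 groups and a cross for ΔEcad male 7. The first and second pairs lie along a line (r of log2 CPM 0.85 and 0.89 over 31 tumours). In the third Trpm1 varies widely at similar Dct outside ΔEcad male 7 (0.04 over the same 31).

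The same sets were also described within the groups. They were picked from r in these same 31 tumours, so the values are no separate check of the pattern. As deviations from the group means over 31 tumours, r ranged from 0.56 to 0.82 within the first set, from 0.68 to 0.91 within the second and from -0.05 to 0.54 between them. In residuals on the mean of Sox10, Mitf and Pax3 the same ranges were 0.45 to 0.75, 0.69 to 0.88 and -0.13 to 0.40. The lowest r within the first set lay just above the highest between the sets. It was 0.56 against 0.54 within groups and 0.45 against 0.40 in residuals.

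The correlations of the 10 genes with their regulators are given as a description over the 31 tumours, with no test. Sox10 had r of 0.44 with Tyr, 0.55 with Dct and 0.69 with Slc45a2, and 0.27 to 0.34 with Tyrp1, Pmel, Slc24a5, Gpr143 and Trpm1. By rank the contrast did not hold for Tyr, with rho of 0.27 for Tyr, 0.45 for Dct, 0.62 for Slc45a2 and 0.30 to 0.36 for the second set. Pax3 had r of 0.59, 0.51 and 0.53 with the first set and of 0.0002 (Tyrp1) to 0.37 (Gpr143) with the second. By rank its values were 0.41 to 0.52 and 0.02 to 0.31. Kit did not follow the split, with r of 0.49 (Tyr), -0.05 (Dct) and 0.34 (Slc45a2) with the first set. With the second set Kit had r of 0.24 to 0.52, and its rho was 0.02 to 0.50 and 0.30 to 0.62. Mc1r, the melanocortin receptor that turns on eumelanin synthesis, had r of 0.69 to 0.87 with the second set and of 0.07 to 0.19 with the first, where rho was 0.63 to 0.79 and 0.21 to 0.37. Mitf itself had r between -0.41 (Oca2) and 0.52 (Tyr) with the 10 genes. By rank the low end did not hold, with rho of 0.02 for Oca2 and a range from -0.07 (Tyrp1) to 0.46 (Tyr).

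Spread between tumours was large for these genes and not equal among them. Over the 31 tumours, the SD of log2 CPM was highest for Oca2 (3.01), Trpm1 (2.75), Tyrp1 (2.24) and Pmel (2.03) and lowest for Slc45a2 (1.04) and Tyr (1.05), where the median over all genes tested was 0.857. From the lowest to the highest of these tumours Slc45a2 spanned 21.1-fold, Tyr 23.4-fold, Mlana 29.6-fold and Dct 34.5-fold in TPM. In contrast, Gpr143 spanned 101-fold, Slc24a5 194-fold, Pmel 405-fold, Trpm1 1037-fold and Tyrp1 1066-fold. No fold is given for Oca2, which had 1 count in its lowest tumour.

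The genes whose pattern was most like the mean of the 10 were named by the 10 highest and the 5 lowest correlations with that mean among 17707 other genes. Over 32 tumours they were led by Fam174b (r = 0.93), Mc1r (0.92), Gpr137b (0.91), Chsy3 (0.90), Mlph (0.90), which links melanosomes to their motor, and Rab38 (0.89), which traffics Tyr and Tyrp1 to them, followed by Igsf11, Foxd3, Gpnmb and Sox10 (0.87 to 0.88). Over the 31 tumours without ΔEcad male 7, Fam174b stayed first (0.87), followed by Sqstm1 (0.84), Gm16861 (0.84), Cd63-ps (0.82), Mgat4b (0.82), Gstp1 (0.81), Cd63 (0.81), Atp6v0a1 (0.80), Gm9951 (0.79) and Ncald (0.78). Cd63, a tetraspanin that sorts Pmel, and Cd63-ps are near-identical, so reads cannot be assigned to either with certainty. Sox10 moved from place 10 to place 551, Pax3 from 18 to 1894 and Mitf from 785 to 4492, and Mc1r from 2 to 19. At the other end, Rasgrf1 (-0.80), Hs6st1 (-0.74), Camk1d (-0.72), Errfi1 (-0.71) and Ccdc162 (-0.71) had the lowest r over 32 tumours, and Map3k20 (-0.78), Col4a5 (-0.77), Ank3 (-0.71), Gm830 (-0.71) and Ccdc162 (-0.70) over 31. Rasgrf1, Ccdc162 and Gm830 were near the floor, with medians of 0.035, 0.05 and 0.075 TPM. Errfi1 was at -0.31 over 31 tumours, and Map3k20 at -0.31 over 32.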

How the data were processed

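RNA of 32 primary mouse melanomas (8 per group, groups and tumour numbers from the labels) was sequenced by the authors from poly(A)-selected stranded libraries, and per the labels FastQC 0.11.5 and STAR were used with mm10 (GRCm38.p5). The authors deposited raw counts per gene and TPM values, both without pooling. Whether batches were corrected is not stated for these tumours. Over 996 highly counted genes the TPM followed the counts within 0.0698%. Identifiers were matched to symbols and positions of GENCODE M21 (GRCm38), with 50376 of 50600 matched and 224 not. The gene list, the further lists and the marker lists were chosen with earlier results of these data known.

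Counts were fitted in edgeR 4.0.16 (R 4.3.3) with TMM factors, filterByExpr, 1 model of the 4 groups over 32 tumours and robust quasi-likelihood tests with Benjamini-Hochberg adjustment over 17717 genes (common dispersion 0.624). Levels were read in TPM. Correlations used log2 CPM with a prior count of 1, and permutation tests used 100000 draws in numpy 2.4.6. The genes named were the 10 members, Mitf, Sox10, Pax3, Mc1r and Kit, up to 3 called genes in each direction from the further lists, and the 10 highest and 5 lowest correlations with the mean of the 10, besides genes a result turned on. Alternatives were DESeq2 1.42.0, limma 3.58.1 (voom, and log2(TPM + 1) and log2(TPM + 0.1)), other size factors, filters, covariates and left-out tumours. Fits were tested on simulated data. No pair of tumours had near-identical values (highest correlation 0.974). Counting floors (3 counts) and intervals cover counting error or the spread between tumours only. Tumour numbers did not pair tumours across groups.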

Additional observations from a re-analysis of the deposited data

Results flagged for a closer look

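A tumour was listed when its gap to the nearest tumour of its group, divided by the range of the group, exceeded Dixon's 95% critical value in log2 CPM, which chance exceeds in about 1 in 20 groups. Of 40 sets of values (10 genes in 4 groups), 12 were listed, all of them low. ΔEcad male 7 was far below the other ΔEcad males for 9 genes: Tyr (-1.92, next 10.1), Tyrp1 (-0.0715, next 6.79), Dct (1.79, next 12.8), Pmel (1.81, next 8.13), Mlana (0.54, next 9.89), Oca2 (-5.19, next 2.21), Slc45a2 (-1.68, next 9.07), Slc24a5 (-2.56, next 4.21) and Gpr143 (-4.29, next 3.52). These are 9 readings of 1 library, whose fibroblast and macrophage marker scores were the highest of the 32.

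ΔEcad female 8 was low for Mlana (6.53, next 9.44) and Oca2 (-1.26, next 4.43). Ecad female 1 was low for Mlana (7.53, next 10.4). None of the 10 genes passed the interaction test of edgeR.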

How the results depend on the processing

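No member was called in any of the 6 comparisons under any of the 48 or 49 alternatives run for each, which included each tumour left out in turn, and the value was 0 in each. The lowest adjusted p of any member was 0.102, for Tyr in the interaction without ΔEcad male 7. With the tumour number as a replicate block the value was also 0. Same-numbered tumours correlated above 0.1 in 18 of 48 pairs and 3 correlated best with their own number, so the numbers were not taken as pairs. The block left 1 gene called among all genes in females. Of the printed estimates, Dct for sex in ΔEcad reversed with limma on log2(TPM + 1) (0.41) and on log2(TPM + 0.1) (0.44), and Dct in the interaction likewise (0.21 and 0.24). The cause was not tested.

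The count of co-varying pairs was 45 over 32 tumours, 28 by rho, 24 without ΔEcad male 7 and, chosen after seeing the data, 22 by rho without that tumour and 27 in residuals on Sox10, Mitf and Pax3 without it. Neighbour pairs that passed numbered 6, or 5 with group means weighted equally, and the order of the 10 was the same in 17 of 34 settings, mostly with Trpm1 and Gpr143 exchanging places. Members' group means moved by less than 1 SD in each setting.

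Over all genes, the calls in females (213) ranged with 1 tumour left out from 1 (without Ecad female 1, 2, 3, 6, 7 or 8 or ΔEcad female 2 or 7) to 695 (without ΔEcad female 4), and otherwise from 1 (limma voom, limma on either TPM scale, the block, or only the tumours compared) to 1281 (DESeq2), with 8 and 3 under the keratinocyte and lineage covariates. DESeq2 called 21 genes in males (edgeR 0), 66 for the average (2), 1023 for sex in Ecad (9), 24 for sex in ΔEcad (7) and 1225 in the interaction (0), where 0 to 848 were called with 1 tumour left out, 848 without ΔEcad male 3. For sex in Ecad 21 were called without Ecad female 5 and 14 without ΔEcad female 3, and the average ranged from 1 to 3. Limma voom called 92 for sex in Ecad. Library size alone moved the median of all genes in the interaction from -0.164 to 0.14.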

Other observations

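Levels of the pigment genes are set here beside the keratinocyte score. Over the 31 tumours, the keratinocyte score had r of -0.52 with Tyr, -0.45 with Slc45a2, -0.40 with Pmel and -0.33 with Slc24a5, of -0.26 with Trpm1, -0.25 with Gpr143, -0.18 with Dct and -0.14 with Tyrp1, and of 0.06 with Mlana and 0.10 with Oca2. By rank the values in the same order were -0.56, -0.54, -0.33, -0.39, -0.36, -0.28, -0.31, -0.15, -0.08 and -0.13. They are a description, since both quantities came from the same library and share its total.

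Dct made up a median of 44.98% of the summed TPM of the 10 genes over these tumours, from 20.1% to 89.0%, and Mlana 26.4%, from 3.03% to 59.99%. Pmel reached 37.0% and Tyrp1 22.6% at most, and Tyr ranged from 0.653% to 6.55%.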
